A study of Saccharomyces cerevisiae with 11 samples.

Results

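Among the transcripts of Saccharomyces cerevisiae cells that carry a mutation of FKS1, 4 little-studied genes stood out beside the known targets of cell wall stress, and they are described here on every array of the series. They are YPL088W, RTA1 (locus YGR213C), MNC1 (locus YBR056W-A) and CPP3 (locus YDR034W-B). They were chosen by their signals in fks1 cells, as the largest rises outside known wall stress genes, so their fks1 values are given as a description with no test. Each has 1 probe set, named from the platform's gene table by symbol, which makes 4 of 9275 probe sets and 4 of the 5656 genes with a probe set of their own. All 4 passed the filter on low values, described with the processing.

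Total RNA was measured on 11 Affymetrix YG-S98 arrays. The wild type was BY4741, named in the labels as the parental strain and known as a haploid of mating type a. The mutant was the fks1 strain 5251, for which the labels give neither the allele nor the number of clones. There were 3 arrays of untreated wild type, 3 of wild type grown in 15 mM glucosamine for 2 h up to harvest, and 3 of wild type kept in 15 mM glucosamine overnight and again after dilution, named continuous. The set also held 1 untreated fks1 array and 1 fks1 array with 15 mM glucosamine. The latter is titled 2 h, while its protocol gives 2 h of growth before the sugar was added and no time in it. All cultures were in rich YPD medium and were harvested at an optical density between 1.6 and 1.8. The wild-type replicates are numbered without a statement on whether they are separate cultures, so the spread behind each p-value may be technical. Each array holds RNA of a whole culture scaled to a common mean, so fewer cells that express a gene and less of its RNA per cell cannot be told apart.

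The FKS1 product is the main catalytic part of glucan synthase, which builds the wall's chief polymer. When the wall is weak, sensors in the plasma membrane start the cell integrity pathway, which runs through Rho1, protein kinase C and a kinase cascade to the MAP kinase Slt2. Slt2 activates the transcription factor Rlm1, which turns on wall genes. Glucosamine can be phosphorylated by the cell and used to make the building block of chitin, another wall polymer. YPL088W encodes a putative aryl-alcohol dehydrogenase of the aldo-keto reductase family, and it has been listed among the targets of the drug resistance regulators Yrr1 and Yrm1. RTA1 encodes a membrane protein with several membrane-spanning segments that gives resistance to aminocholesterol when overproduced, and its relative Rsb1 acts on the export of sphingoid bases. MNC1 and CPP3 encode very small proteins of the CYSTM family, named for a cysteine-rich module at the membrane, and MNC1 has been linked to manganese.

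In the RefSeq gene table (assembly R64) the genes lie on 4 chromosomes, YPL088W on XVI, RTA1 on VII, MNC1 on II and CPP3 on IV. Their annotated lengths are 1029 bases for YPL088W, 954 for RTA1, 201 for MNC1 and 156 for CPP3, which correspond to 342, 317, 66 and 51 codons without the stop.

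The signals are linear, with a trimmed mean of 500.42 to 500.53 on every array. A signal over 25.46 is taken here as measurable. This value, called the control percentile, is the 95th percentile of all signals from 19 background controls. FKS1 checked the strain label: it read 6591.4 to 8256.7 on the 9 wild-type arrays, and 24.4 and 6.6 on the untreated and treated fks1 arrays. Of 5 marker genes of mating type a cells, MFA1, MFA2, STE2 and BAR1 read at least 841.8 on every array, while ASG7 read 36.2 to 94.2. The 4 marker genes of alpha cells read 30.9 to 188.7, with SAG1 highest. All 9 markers were above the control percentile on all 11 arrays, as were 76.7% to 81.32% of the probe sets on each array. Since alpha cell markers passed it in a wild type of mating type a, a signal above the percentile does not show that a gene was expressed. Continuous array 2 stood apart from the other continuous arrays in several of the genes below, so the continuous differences of the 4 genes are also given without it. The labels name no batch, and one that held the continuous arrays alone could not be told apart from the treatment.

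YPL088W was low in wild type, higher on every array with glucosamine than on any untreated one, and highest in fks1. It read 77.0, 120.1 and 102.3 on untreated arrays 1, 2 and 3, then 219.6, 180.1 and 140.7 on the 2 h arrays and 202.4, 146.1 and 172.6 on the continuous arrays. The gap between untreated and treated wild type was narrow, from 120.1 to 140.7. In fks1 it read 1130.7 untreated and 1037.4 with glucosamine, so the fks1 arrays lay 5.15-fold and 4.72-fold above the highest wild-type array of any treatment. The group means were 99.8 ± 21.7 (SD, n = 3) untreated, 180.1 ± 39.5 after 2 h and 174 ± 28.2 in continuous glucosamine, and the last 2 differed by less than their spread.

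RTA1 was at the edge of detection in wild type. It read 18.0, 11.3 and 26.2 on the untreated arrays, 27.9, 26.0 and 21.2 after 2 h, and 22.9, 23.5 and 38.2 in continuous glucosamine. Only 4 of these 9 arrays exceeded the control percentile of 25.46, 1 of them untreated, so the order of the wild-type groups cannot be read from the signals. The fks1 arrays read 145.9 untreated and 112.9 with glucosamine. Both were clearly above that percentile, but below SAG1, an alpha cell marker, at 169.8 and 170.3 on the same arrays. The group means were 18.5 ± 7.46, 25.03 ± 3.45 and 28.2 ± 8.67 (SD, n = 3 each).

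MNC1 varied most among the wild-type arrays, with a 13.2-fold range from the lowest to the highest. It read 117.2, 168.7 and 74.4 on the untreated arrays and 244.6, 343.8 and 123.8 after 2 h. In continuous glucosamine arrays 1 and 3 read 978.1 and 981.5, while array 2 read 129.0, inside the untreated range. Both fks1 arrays read above all of these, 1205.3 untreated and 1021.4 with glucosamine. They were thus 1.23-fold and 1.04-fold above the highest wild-type array, so 2 of the 3 continuous wild-type arrays came close to the level of the mutant. The group means were 120.1 ± 47.2, 237 ± 110 and 696 ± 491 (SD, n = 3 each).

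CPP3, the other small CYSTM gene, was at overlapping levels in the 3 wild-type groups and far higher in fks1. It read 147.2, 257.5 and 222.0 untreated, 219.6, 258.2 and 142.7 after 2 h, and 255.9, 132.3 and 484.2 in continuous glucosamine. The fks1 arrays read 2124.1 untreated and 2596.3 with glucosamine, 4.39-fold and 5.36-fold above the highest wild-type array. The group means were 209 ± 56.3, 207 ± 58.8 and 291 ± 179 (SD, n = 3 each), which differed by less than their spread.

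**Figure D1:**
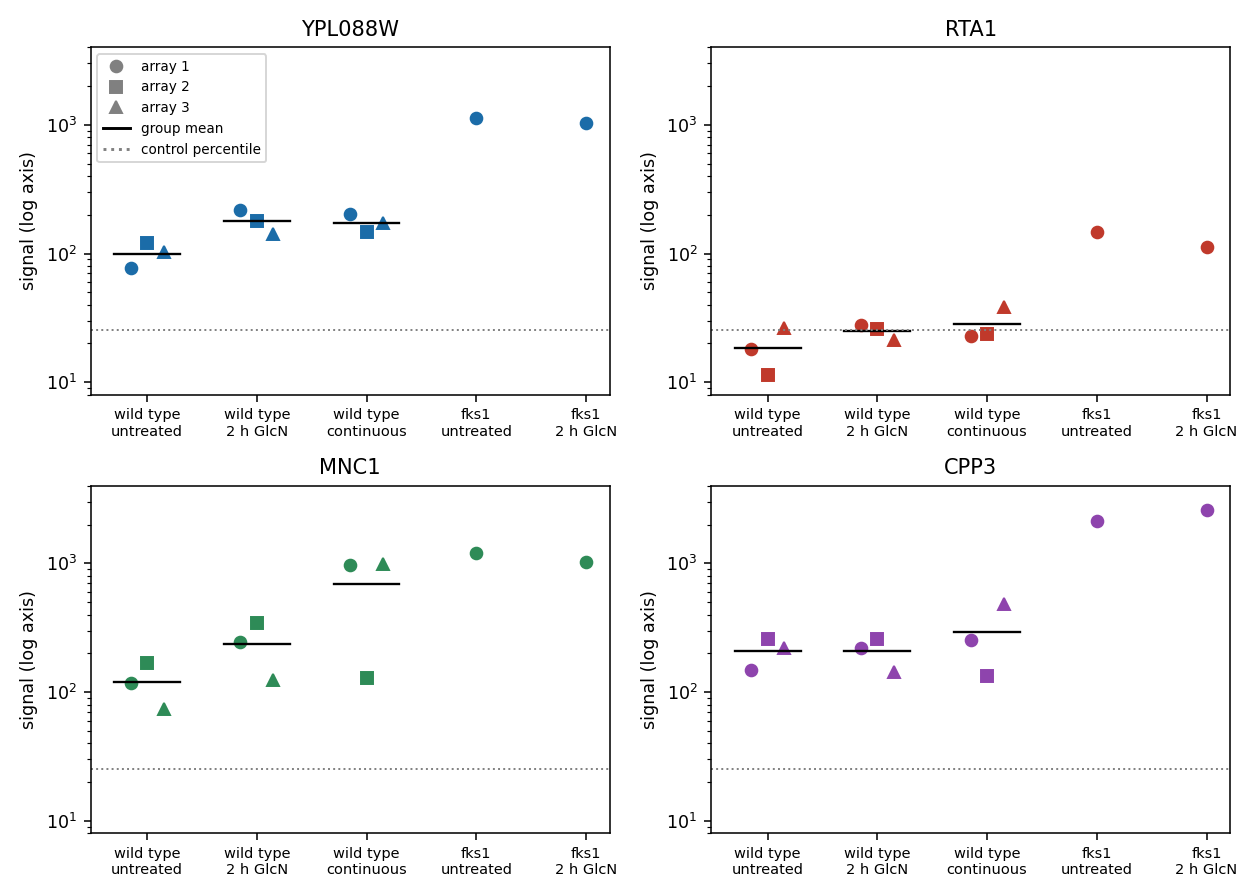
Signal of YPL088W, RTA1, MNC1 and CPP3 on each of the 11 arrays (log axis), with wild-type arrays 1, 2 and 3 as circle, square and triangle, the wild-type group mean as a line and the control percentile of 25.46 dotted. Both fks1 arrays lie above every wild-type array for all 4 genes, as for 11.7% of the probe sets tested, and by the least for MNC1, whose continuous arrays 1 and 3 read 978.1 and 981.5.

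Taken as differences from untreated wild type, the values of the 4 genes lay close together in untreated fks1 cells. The log2 difference, between the fks1 array and the mean log2 signal of the 3 untreated wild-type arrays, was 3.53 for YPL088W (11.5-fold), 3.41 for MNC1 (10.6-fold), 3.38 for CPP3 (10.4-fold) and 3.06 for RTA1. RTA1 was at least 5.68-fold higher when wild-type signals under the control percentile were set to it. All 4 lay at least 2-fold above each of the 3 untreated arrays, as did 2.58% of the 8616 probe sets tested. This contrast chose the genes, so nothing is read from that count. Fks1 has 1 array per treatment, and the difference has no replicate check.

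The size of the fks1 difference against single wild-type arrays ran from 9.41-fold to 14.7-fold for YPL088W, from 8.25-fold to 14.4-fold for CPP3 and from 7.14-fold to 16.2-fold for MNC1. For RTA1 the smallest was 5.57-fold. Ranked by this smallest fold among 5568 genes, YPL088W came 4th, CPP3 7th, MNC1 8th and RTA1 11th. The gene just above YPL088W was SRL3, a wall stress gene, at 12.6-fold, and just below it were GSC2, the alternative glucan synthase subunit, at 8.63-fold and PRM5, another wall stress gene, at 8.49-fold. SLT2 stood between MNC1 and RTA1 at 6.92-fold, with PHO89, a phosphate transporter gene, at 6.19-fold. MET3, the ATP sulfurylase gene of sulfate assimilation, came just after RTA1 at 5.49-fold, so the 4 genes blend into their neighbours without a gap.

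On the arrays with glucosamine the differences were spread more widely. Against the 3 wild-type 2 h arrays the treated fks1 array was 12.9-fold higher for CPP3 (log2 3.69), 5.85-fold for YPL088W (log2 2.55) and 4.68-fold for MNC1 (log2 2.23). RTA1 was at least 4.27-fold higher (log2 2.18 with the signals as deposited), with 2 h arrays 1 and 2 above the control percentile. All 4 were at least 2-fold above each of the 3 wild-type arrays, as were 2.5% of the probe sets tested, and the ranks were 2nd for CPP3, 15th for YPL088W, 22nd for RTA1 and 41st for MNC1. The choice of the genes may have used this array too, so these values are again a description.

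Within fks1, the treated array stood at 0.917 of the untreated one for YPL088W, 0.847 for MNC1 and 0.774 for RTA1, and at 1.22 for CPP3. For MNC1 and YPL088W the smaller fold with glucosamine thus went with both a slightly lower fks1 signal and a higher wild-type mean. For CPP3 the wild-type mean after 2 h was 207 against 209 untreated, and the fks1 signal was the value that differed. There is 1 fks1 array per treatment, so these differences carry no error.

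**Figure D2:**
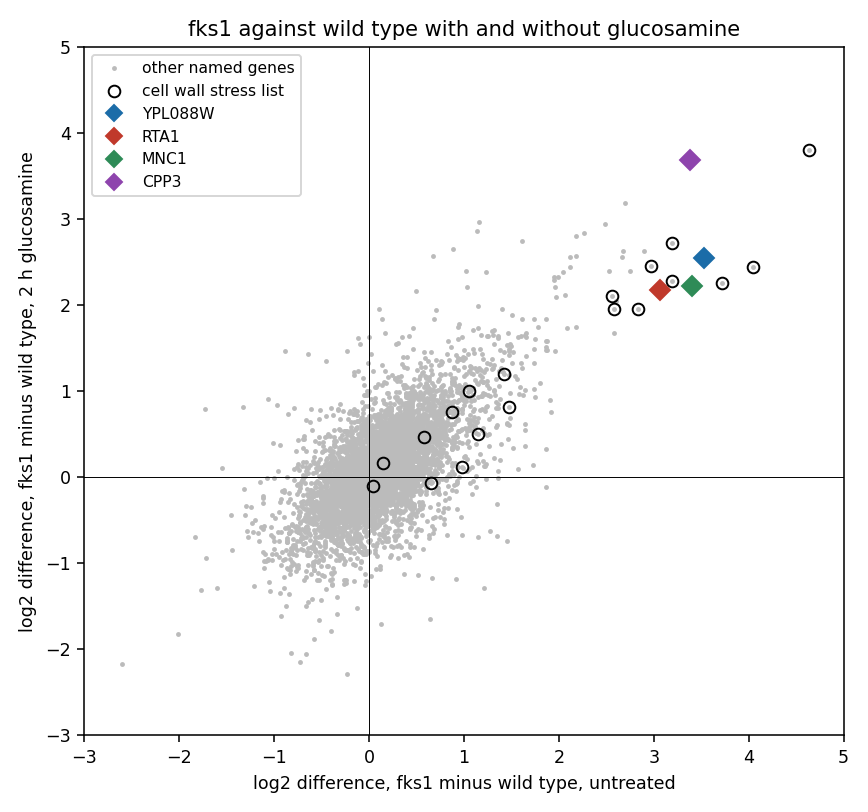
Log2 difference of fks1 from wild type in untreated cells (x axis) and with glucosamine (y axis, arrays titled 2 h) for 5568 named genes. The 4 genes are diamonds, the cell wall stress list open circles, and 3 genes lie outside the axes. The 4 genes lie at 3.06 to 3.53 on the x axis, the difference on which they were chosen, and CPP3 lies above the other three on the y axis at 3.69.

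The response of wild-type cells to glucosamine was tested on 9 arrays, 3 of which, the untreated ones, were also the baseline on which the genes were chosen. The differences from untreated cells are therefore not independent of the choice. The difference between continuous and 2 h glucosamine does not use those arrays, but its SE and p do, through the shared spread of the fit. If the choice also used the treated fks1 array, it may have used the wild-type 2 h arrays as well. After 2 h YPL088W measured 1.81-fold (log2 0.85, SE 0.24, limma adjusted p = 0.588), MNC1 1.92-fold (log2 0.94, SE 0.73) and RTA1 1.42-fold (log2 0.51, SE 0.35), while CPP3 measured 0.987-fold (log2 -0.02, SE 0.43). By limma 0 of the 4 genes passed the threshold of 0.05 after adjustment over all probe sets, as 0.0348% of the 8616 tested did. Unadjusted, 1 of the 4, YPL088W, was under 0.05 by limma, against 6.06% of all. YPL088W was also the 1 of 4 whose 2 h arrays all lay above the untreated ones, as for 4.64% of the probe sets. An exact permutation test of 3 against 3 arrays, taken as unpaired, cannot go below p = 0.1, which is the value it gave for YPL088W (two-sided).

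Untreated and 2 h arrays of the same number deviated together from their group means, and a fit of these 6 arrays with the number as a block called 17 probe sets in place of 3, 0.197% of those tested. By limma 0 of the 4 genes were among them, and 2 were under 0.05 unadjusted, against 12.8% of all. MNC1 came nearest (log2 0.94, SE 0.16, adjusted p = 0.0729), and it was 2.09, 2.04 and 1.66 times as high on 2 h arrays 1, 2 and 3 as on the untreated array of the same number. YPL088W had an adjusted p of 0.203 in that limma fit, with ratios of 2.85, 1.5 and 1.38. CPP3 gave ratios of 1.49, 1.00 and 0.643, on both sides of no difference.

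In continuous glucosamine MNC1 had the largest wild-type difference of the 4 genes, 4.38-fold (log2 2.13, SE 0.73, limma adjusted p = 0.196). Its 3 arrays stood 3.10, 0.18 and 3.11 above the untreated mean on the log2 scale, so array 2 stood near untreated cells. Without that array MNC1 was higher by log2 3.11 (SE 0.44) and passed by limma (adjusted p = 0.0453), where 0.302% of all probe sets did. With all 9 arrays 0 of the 4 genes passed by limma, as 1.44% of all probe sets did, and 2 of the 4, MNC1 and YPL088W, were under 0.05 unadjusted, as were 13.8% of all. Array 2 was left out because it stood apart in these genes, so the call without it is not independent of that choice. Without continuous array 1 or 3 the MNC1 difference was log2 1.65 and 1.64 (limma adjusted p = 0.524 and 0.373). The call without array 2 also rests on the same untreated arrays.

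YPL088W measured 1.75-fold in continuous glucosamine (log2 0.81, SE 0.24, limma adjusted p = 0.135). It was again the 1 of the 4 genes whose treated arrays all lay above the untreated ones, as for 10.6% of the probe sets. RTA1 had a log2 difference of 0.65 (SE 0.35) from signals mostly under the control percentile. That difference was 0.18 once signals under the percentile were set to it. CPP3 had a log2 difference of 0.32 (SE 0.43), with its highest and its lowest wild-type array both in the continuous group. Without continuous array 2, its lowest, that difference was 0.79 (SE 0.37, limma adjusted p = 0.476). YPL088W then had 0.93 (SE 0.27) and RTA1 0.76 (SE 0.41), and neither passed.

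Between continuous and 2 h glucosamine 0 of the 4 genes passed by limma, as 0.058% of all probe sets did, and 0 of the 4 were under 0.05 unadjusted, against 14.0% of all. The log2 differences were 1.19 for MNC1 (SE 0.73), 0.34 for CPP3 (SE 0.43), 0.14 for RTA1 (SE 0.35) and -0.04 for YPL088W (SE 0.24). Without continuous array 2 that of MNC1 was 2.17 (SE 0.44, adjusted p = 0.175), that of CPP3 0.81, that of RTA1 0.25 and that of YPL088W 0.08, and none passed by limma.

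**Figure D3:**
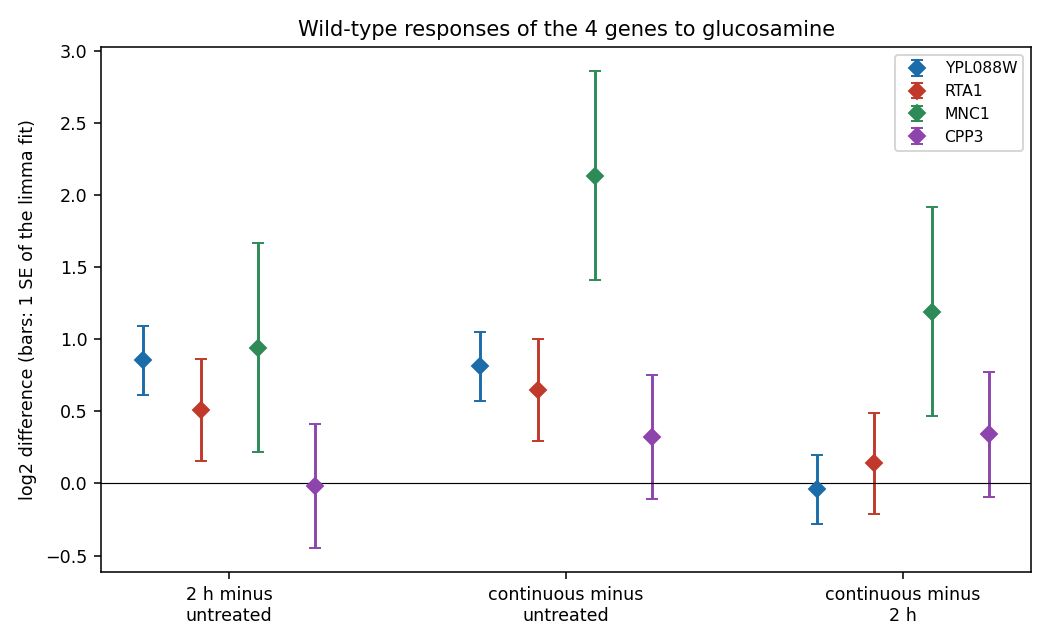
Log2 difference between wild-type groups for YPL088W, RTA1, MNC1 and CPP3 in the 3 comparisons of the limma fit of 9 arrays, with bars of 1 SE. YPL088W sits near 0.85 and 0.81 against untreated cells with the shortest bars, and MNC1 sits at 2.13 in continuous glucosamine with the longest.

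The relatives of the 4 genes are given for their own values, and nothing is read from a gap in fks1, on which the 4 were chosen. The CYSTM list has 5 genes. In untreated fks1 YDL012C, an unnamed member, measured 1.00-fold, CPP1 1.28-fold and CPP2 1.61-fold. CPP2 read 1676.3, 1634.4 and 2096.3 in untreated wild type and 2891.4 in fks1. Of these 3 relatives 0 were 2-fold from each wild-type array in either direction, which 2.58% of all probe sets were upward and 0.499% downward. In wild type 0 of the 3 passed by limma, against 0.0348% of all probe sets after 2 h, 1.44% in continuous glucosamine and 0.058% between both. Unadjusted, 1 was under 0.05 in continuous glucosamine, against 13.8% of all probe sets. Their log2 differences there ran from 0.11 for CPP2 to 0.33 for YDL012C (SE 0.14).

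Of the RTA1-like membrane protein genes, PUG1, whose product takes part in protoporphyrin uptake, also lay at least 2-fold above each untreated array in fks1, 1 of the 3 relatives against 2.58% of all probe sets. It read 50.7, 39.3 and 44.8 in untreated wild type and 112.6 in fks1 (2.52-fold). With glucosamine its fold was 2.20, but only 1.95 over the highest wild-type 2 h array. Thus 0 of the 3 relatives were 2-fold above each array there, against 2.5% of all probe sets. YLR046C measured 1.90-fold untreated and 0.959-fold with glucosamine, and RSB1, the sphingoid base exporter gene, measured 0.786-fold and 0.827-fold. By limma 0 of the 3 passed in wild type, against 1.44% of all probe sets in continuous glucosamine, and 1, PUG1, was under 0.05 unadjusted there, against 13.8%.

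Of the other 13 aldo-keto reductase and aryl-alcohol dehydrogenase genes, 10 were tested and AAD3, AAD15 and AAD16 had no probe set of their own. In untreated fks1 0 of the 10 were 2-fold from each wild-type array, against 2.58% of all probe sets upward and 0.499% downward, with log2 differences from -0.09 to 0.83 and a median of 0.35, against 0.12 over all probe sets. AAD14, an aryl-alcohol dehydrogenase gene, measured 1.08-fold, and AAD10 1.24-fold. With glucosamine 1 of the 10 was 2-fold above each wild-type array and 0 were 2-fold below, against 2.5% and 0.615% of all. That was YDL124W, an alpha-keto amide reductase gene, at 3.00-fold, where fks1 read 964.1 and the wild-type 2 h arrays 456.7, 278.8 and 260.0. In wild type 0 of the 10 passed by limma, against 0.0348% of all after 2 h, 1.44% in continuous glucosamine and 0.058% between both. Unadjusted, 0 were under 0.05 against untreated cells, where 6.06% of all were after 2 h and 13.8% in continuous glucosamine.

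The drug resistance genes, among which YPL088W has been counted, were within 2-fold of at least 1 untreated wild-type array in untreated fks1. Of 17 targets of Yrr1 and the Pdr factors 0 were 2-fold from each untreated array, against 2.58% of all probe sets upward and 0.499% downward, with a median log2 difference of 0.12, the same as over all probe sets. SNQ2, the transporter gene most tied to Yrr1, measured 1.12-fold, PDR5 1.03-fold and FLR1 0.942-fold. Of the 7 factor genes 0 were 2-fold from each array, YRR1 measuring 1.24-fold and YRM1 0.946-fold. With glucosamine 1 of the 17 targets was 2-fold above each wild-type array, GRE2, a methylglyoxal reductase gene (2.19-fold), against 2.5% of all. By limma 0 of the 17 targets and 0 of the 7 factors passed in wild type. Over all probe sets 0.0348% passed after 2 h, 1.44% in continuous glucosamine and 0.058% between both. In continuous glucosamine 4 targets and 0 factors were under 0.05 unadjusted, against 13.8% of all, and after 2 h 0 of both, against 6.06%. Between continuous and 2 h glucosamine 6 targets and 1 factor were under 0.05 unadjusted, against 14.0% of all. The target differences there went both ways, with 8 of the 17 positive.

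Of 10 genes of manganese handling, chosen because of MNC1, 0 were 2-fold from each array in fks1 in either treatment, where 2.58% of all probe sets were upward untreated and 2.5% with glucosamine. Their median log2 difference was 0.06 untreated, with a range from -0.41 for SMF2 to 0.58 for BSD2. SMF1, a manganese transporter gene, measured 1.34-fold and PMR1, the Golgi calcium and manganese pump gene, 1.33-fold. In continuous glucosamine all 10 differences in wild type were negative, where 4515 of the 8616 probe sets tested had a positive one. Their median was -0.24, against 0.02 over all probe sets, and PMR1, CCC1 and BSD2 were at -0.02 each (SE 0.12 to 0.25). By limma 0 of the 10 passed, against 1.44% of all. Unadjusted, 2 of the 10 were under 0.05, against 13.8% of all.

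The cell wall stress list holds the known targets outside which the 4 genes were chosen. Of its 19 tested genes 12 were at least 2-fold above each untreated array in fks1, against 2.58% of all probe sets, with a median log2 difference of 1.47, and 9 with glucosamine, against 2.5%. Beside SRL3, GSC2, PRM5 and SLT2 above, the 12 included KDX1 (16.5-fold), PIR3, a wall protein gene (7.84-fold), PRM10 (5.99-fold) and NCW2 (5.90-fold). The others of the 12 were RLM1 (2.77-fold), PST1 (2.67-fold), CRH1, a chitin transglycosylase gene (2.21-fold), and CRG1. On a family probe set CRG1 was at least 21.7-fold higher when signals under the control percentile were set to it. The list was drawn up with earlier results of these arrays known, so its direction is not independent evidence. In wild type 2 of the 19 rose in continuous glucosamine by limma, PRM5 (adjusted p = 0.0265) and SRL3 (adjusted p = 0.0272), against 1.06% of all probe sets. Without continuous array 2 both still passed, PRM5 at log2 2.26 (adjusted p = 0.00993) and SRL3 at 3.14 (adjusted p = 0.00198). Array 2 was the lowest continuous array for both, at 428.7 and 176.0, so leaving it out could only widen the difference. With untreated array 2 left out in its place, 0 probe sets were called higher by limma, so neither passed. After 2 h 0 of the 19 passed by limma, against 0.0348% of all probe sets. Unadjusted, 11 of the 19 were under 0.05 in continuous glucosamine, against 13.8% of all, and 8 after 2 h, against 6.06%. Between both 6 were, against 14.0%, with 7 of the 19 differences positive.

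**Figure D4:**
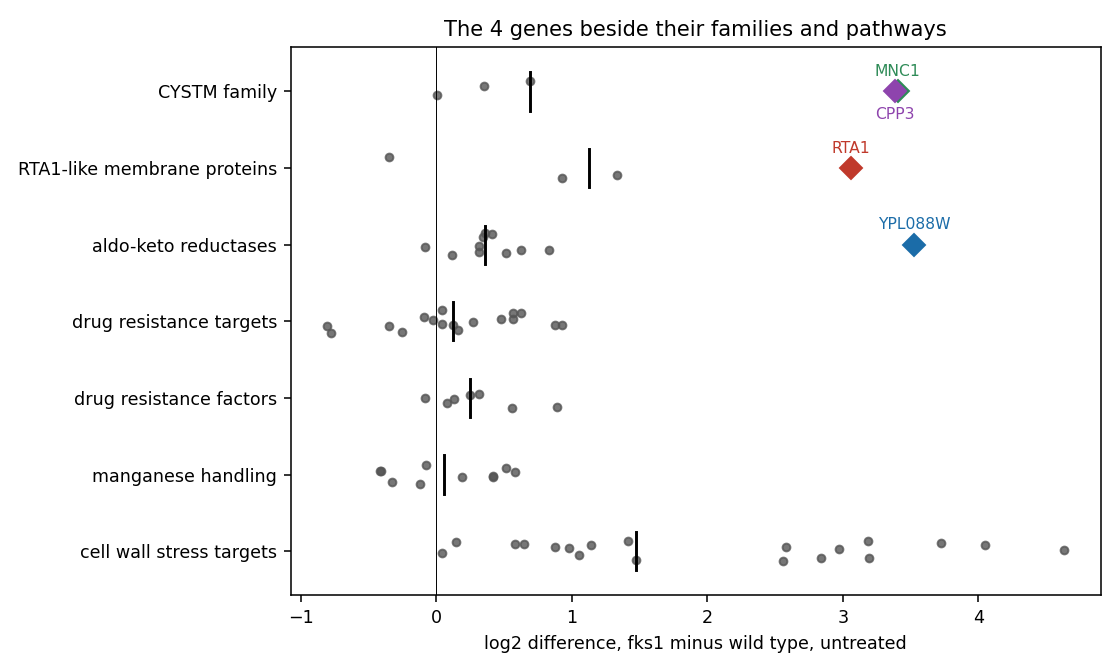
Log2 difference of untreated fks1 from untreated wild type for the tested genes of 7 lists, with the 4 genes as labelled diamonds, other genes as dots shifted slightly up or down to keep them apart, and the list median as a bar. The 4 genes, chosen on this difference, lie at 3.06 to 3.53, and the highest of their relatives is PUG1 at 1.33.

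Genes with the most similar profile were sought by Pearson's r of log2 signals, over the 11 arrays and over the 9 wild-type arrays alone, among 2532 genes that vary at least 2-fold. Over 11 arrays r rests largely on the gap between strains. No p is given for any r, since these arrays fall into a few groups and share their controls.

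For MNC1, RLM1 and PTP2 were the 2 closest genes both with and without the fks1 arrays. Over 11 arrays its nearest were RLM1, the transcription factor gene of the cell integrity pathway (r = 0.970), and PTP2, a phosphatase gene acting on MAP kinases (0.958). Next came NCW2, a wall protein gene (0.954), SLT2 (0.954) and PUN1, a plasma membrane protein gene (0.952). Over the 9 wild-type arrays alone they were PTP2 (0.968), RLM1 (0.960) and YOR385W (0.956). RLM1 read 621.8, 327.2 and 787.7 on continuous arrays 1, 2 and 3, and PTP2 250.1, 133.3 and 235.1. SLT2 read 981.7, 423.1 and 1274.1 there, so array 2 was the lowest of the 3 for each of them, as it was for MNC1. These genes were picked for a high r with MNC1 on these same arrays, so a shared low array 2 largely follows from the choice. YOR385W shared the pattern (1566.5, 324.5 and 1437.6) but read 681.2 and 641.5 in fks1, below its continuous arrays 1 and 3.

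**Figure D5:**
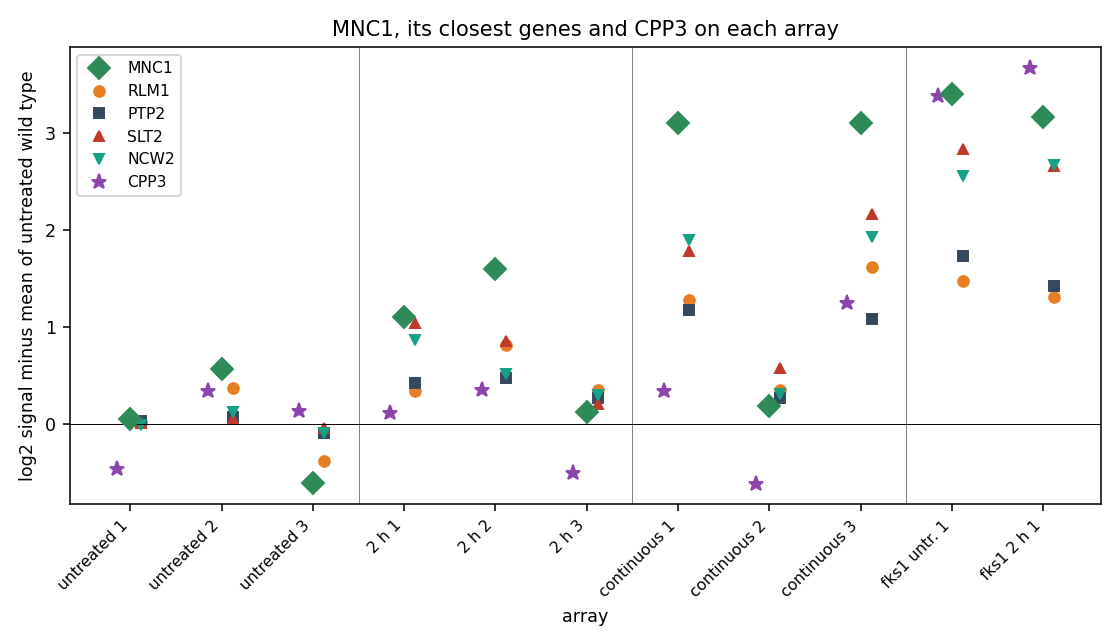
Log2 signal of MNC1, of RLM1, PTP2, SLT2 and NCW2 (4 of its closest genes) and of CPP3 on each of the 11 arrays, relative to the mean of the 3 untreated wild-type arrays. MNC1 and its 4 close genes, which were picked by r on these arrays, are lower on continuous array 2 than on arrays 1 and 3. CPP3 reaches its fks1 level of 3.38 from wild-type values of at most 1.25.

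YPL088W was closest to KDX1, the gene of a kinase related to Slt2, over the wild-type arrays (r = 0.920), where MHF2, a histone-fold protein gene (0.872), and ARC19, an actin nucleation gene (0.864), came next. KDX1 read 26.1, 31.2 and 33.3 untreated, 133.6, 91.3 and 61.2 after 2 h and 74.7, 82.4 and 71.7 in continuous glucosamine. Like YPL088W it was highest on 2 h array 1 among the wild-type arrays. Over 11 arrays the nearest to YPL088W were GFA1, the first enzyme gene of hexosamine synthesis (0.976), KDX1 (0.972) and GSC2 (0.968). CRG1, a methyltransferase gene (0.966), and KTR2, a mannosyltransferase gene (0.961), followed. GFA1 read 2621.7 and 2538.4 in fks1 against at most 1463.5 in wild type.

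CPP3 was closest to KTR2 over 11 arrays (r = 0.986), followed by CSS3 (0.974), SUL2, a sulfate transporter gene (0.964), GSC2 (0.952) and YNR065C (0.951). Over the wild-type arrays its nearest were PAL2, an endocytosis gene (0.926), KTR2 (0.908) and CMG1 (0.908), though CMG1 read only 47.9 and 25.5 in fks1. KTR2 read 103.3 to 209.9 in wild type and 710.1 and 692.3 in fks1. Its highest wild-type array was continuous array 3, which was also the highest for CPP3.

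RTA1 was closest to RBK1, a ribokinase gene (r = 0.956), YBR071W (0.952), KTR2 (0.948), YNR065C (0.943) and DAS1 (0.941) over 11 arrays. Over the wild-type arrays its nearest were PAR32 (0.916), VIR1 (0.860) and AGP3, an amino acid transporter gene (0.849). Most of its wild-type signals were under the control percentile, so these last values describe differences near background.

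Among themselves the 4 genes had a lower r in wild type than over both strains. They were chosen for high fks1 signals, which raises r over 11 arrays, so nothing is read from that drop. YPL088W and CPP3 had r = 0.926 over 11 arrays and 0.413 over the 9 wild-type arrays, and YPL088W and RTA1 0.927 and 0.484. The 2 CYSTM genes had r = 0.770 over 11 arrays and 0.734 in wild type, the highest of the 6 pairs there. MNC1 and RTA1 had 0.692 and 0.429.

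The genes beside them in the RefSeq table gave a last comparison. YPL088W lies next to RLM1 (locus YPL089C), and RLM1 measured 2.77-fold in untreated fks1 (263 ± 67.9 in wild type, SD, n = 3, and 713.4 in fks1) against 11.5-fold for YPL088W. With glucosamine the folds were 1.76 and 5.85. Despite this position, r between them was 0.654 over the wild-type arrays, the 62nd place among the genes compared. On the other side YDC1, a dihydroceramidase gene, measured 0.886-fold.

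RTA1 lies between SLI1, an acetyltransferase gene (1.15-fold, from signals near the control percentile), and RPS0A, a ribosomal protein gene (0.793-fold). MNC1 lies beside MUM2, a gene needed in meiosis (1.11-fold), and on the other side, past a noncoding RNA gene with a family probe set, MRX18 (locus YBR056W). MRX18 measured 2.34-fold in untreated fks1 (112 ± 21.6 in wild type and 257.0 in fks1) and 1.95-fold with glucosamine, but 1.04-fold in continuous glucosamine in wild type (log2 0.06, limma adjusted p = 0.972), where MNC1 measured 4.38-fold. CPP3 lies beside ARO3, a gene of aromatic amino acid synthesis (0.891-fold), and past another noncoding RNA gene lies YDR034C-A (0.595-fold on a family probe set). In continuous glucosamine that probe set fell by 2.08 on the log2 scale (limma adjusted p = 0.0444), where 1.44% of all probe sets passed. Without continuous array 2 it fell by 2.56 (limma adjusted p = 0.0335). That array was its highest continuous one, at 626.4, so leaving it out could only widen the fall. CPP3 had differences of 0.32 with all arrays and 0.79 without continuous array 2. Without untreated array 2 the limma calls over all probe sets went from 124 to 2, and the result of this probe set is not given. MRX18 and YDR034C-A were added as the next protein-coding genes after their values were seen.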

How the data were processed

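Per the labels' protocols, the deposited signals came from GeneChip Analysis Suite, which the authors used for analysis and normalisation. Its version and settings are not stated in the labels. Each value is linear and belongs to 1 probe set on 1 array, and none was rescaled here. Values below 7.7 (the 10th percentile) were raised to 7.7 before the log2 transformation. Without the 60 control probe sets 9275 remained, and 8616 were tested, the requirement being 3 wild-type arrays over that floor. Symbols were updated through the RefSeq table, with 1 gene for 6504 probe sets, several for 328 and no gene for 2443. A gene with several probe sets is represented by that of highest mean signal.

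All wild-type arrays entered 1 limma fit (limma 3.58.1, R 4.3.3) with a variance trend. Tests were two-sided, with Benjamini-Hochberg adjustment over all tested probe sets at 0.05, and the fit was tested on simulated data. Same-numbered untreated and 2 h arrays deviated together from their group means (r = 0.356, 0.570 and 0.517 across probe sets), so these numbers were taken as pairs. Continuous arrays gave -0.236 to -0.006 with the same-numbered others. No 2 arrays held identical values. The members and all lists were chosen with earlier results of these data known. Named are the 4 genes, list genes past a test or fold, the genes closest by r (5 over 11 arrays, 3 over 9) or by rank, and chromosomal neighbours. Other list genes are examples chosen after their values were seen. Chromosomes, gene lengths and neighbours come from the RefSeq table (assembly R64), and no coordinates or sequences are given. Alternatives covered floor, pseudocount, scaling, filter, family probe sets, block, trend and each array left out. The number of arrays limits the precision.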

Additional observations from a re-analysis of the deposited data

Results flagged for a closer look

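For YPL088W, RTA1 and MNC1 the glucosamine difference ran in opposite directions in the strains. All 3 wild-type 2 h arrays lay above the mean of untreated wild type, and the treated fks1 array, titled 2 h, lay below the untreated one. The share of all probe sets that did so is not given, so nothing is read from the number of these genes. The fks1 log2 difference was -0.12 for YPL088W, -0.37 for RTA1 and -0.24 for MNC1, against wild-type differences of 0.85, 0.51 and 0.94. Each fks1 difference was smaller in size than the SD of the untreated wild-type arrays, log2 0.32, 0.61 and 0.59. The difference between the strains was not tested, since fks1 has 1 array per treatment and the untreated one chose the genes. RTA1 read 21.2 on 2 h array 3, below untreated array 3 at 26.2, and 5 of its 9 wild-type signals lay under the control percentile.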

How the results depend on the processing

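Of the 12 wild-type differences of the 4 genes, 0 passed with all arrays under any setting, and the 1 call among the alternatives was MNC1 in continuous glucosamine without continuous array 2 (log2 3.11), with a range of 1.64 to 3.11 when single arrays were left out. Some signs turned. CPP3 after 2 h was 0.0374 with median scaling and 0.0572 with quantile normalization, and ran from -0.25 to 0.23 with single arrays left out. CPP3 ran from -0.14 to 0.79 in continuous glucosamine and from -0.13 to 0.81 against 2 h, RTA1 from -0.10 to 0.27 and YPL088W from -0.21 to 0.11 against 2 h. The replicate block changed no call of these genes. In fks1 all 4 genes stayed at least 2-fold above each of the 3 matching wild-type arrays, untreated or 2 h, under every scaling, floor and pseudocount tried. RTA1 moved with log2(signal + 16) to log2 2.25 untreated and 1.65 with glucosamine. Median scaling shifted the median of all probe sets from 0.12 to -0.08 in untreated fks1, and from 0.05 to -0.06 between continuous and 2 h glucosamine. Counts over all probe sets were less stable: after 2 h 3 were called, 0 to 4 without pairs and 17 with the 6-array block, in continuous glucosamine 124, with 2 to 182 under the alternatives (50 with the 9-array replicate block), and between both 5, with 2 to 9. Untreated fks1 had 222 probe sets at least 2-fold higher, 116 to 163 under other scalings, floors or the pseudocount and 28 at 4-fold, and treated fks1 215, with 121 to 159. Over 11 arrays Spearman's rho was 0.873 for CPP3 with KTR2 and 0.918 for MNC1 with RLM1. Low signal limits RTA1 in wild type.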
